A study of Mus musculus with 32 samples.

Results

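Gene expression with wild-type CTCF supplied from an added gene was compared with that in control cells, both treated with the auxin indole-3-acetic acid (IAA). The comparison takes 4 of the 32 RNA-seq libraries of the series, 2 titled as overexpressing wild-type CTCF with IAA and 2 titled as overexpression control with IAA. It covers 13938 genes, those with a mean of at least 10 over the 12 libraries of the overexpression table, of 14970 listed there. All 12 libraries are E14 mouse embryonic stem cells whose own CTCF carries an AID tag, a degron by which auxins direct a protein to the proteasome. The other 8 are control and wild-type CTCF without IAA, and a mutated CTCF with and without IAA, with 2 libraries in each of the 6 groups. The labels give 500 uM IAA and 12 h of treatment for the control group with IAA. For wild-type CTCF with IAA they give 500 uM but no time, so equal exposure is not known. They do not say what the control construct or the CTCF mutation is, which promoter drives the added gene, whether a line is 1 clone, or whether replicates are separate cultures, so p-values measure the spread between libraries, which may be technical.

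The title and the treatment label disagree for 4 libraries. Both wild-type CTCF libraries with IAA by title bear a label without treatment, and both mutated CTCF libraries without IAA by title bear a label of treatment. Groups follow the titles. Cyp1a1, a target of the aryl hydrocarbon receptor, which indole compounds can engage, stood at 109 and 105 normalised counts in the control libraries and at 883 and 833 in the control libraries with IAA. It stood at 833 and 946 in the libraries titled as wild-type CTCF with IAA, against 107 and 94.8 with wild-type CTCF alone and 142 and 138 with mutated CTCF alone. By this gene, both libraries whose title says IAA and whose label says untreated lay with the treated control, and their log2 difference from it was 0.05 (SE 0.10, limma adjusted p 0.847).

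CTCF is a zinc-finger protein that binds a long DNA motif, stops the loop-extruding cohesin complex and so sets the borders of chromatin domains. It also binds near many gene starts, and clustered genes such as the protocadherins are known to depend on it. A rescue design supplies a further copy of a protein while the tagged one is destroyed, and the comparison asks which transcripts differ once that copy is present. The labels do not say whether the added CTCF carries the tag.

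The authors deposited normalised counts, and these summed to 19073890 to 19546135 per library, with a Pearson r across genes between replicates of 0.985 to 0.989. The read depth is unknown, because whole reads could not be recovered. Differences are on the log2(value + 1) scale, which understates changes of low genes, and called means that limma's p, adjusted by Benjamini-Hochberg over all tested genes, was under 0.05. On the first principal component, which held 33.4% of the variance, wild-type CTCF with IAA lay at 12.4 and 13.2, between the control with IAA (33.0 and 33.8) and all libraries without IAA (-31.8 to -14.4). Embryonic stem cell markers were abundant in all libraries, with Pou5f1 at 15051 and 14831 in the control with IAA and 15611 and 15775 with wild-type CTCF and IAA. Among markers of other cell types, Sox17 and Pax6 have no value here, and Gata6 of primitive endoderm lay at 7.94 and 3.21 in the control with IAA and at 4.80 and 14.4 with wild-type CTCF and IAA. Other members of these lists were expressed. In the control with IAA the 11 primitive endoderm markers with values summed to 16644 to 17793, and the 6 neural markers to 4851 to 4962.

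Ctcf (ENSMUSG00000005698.15, GRCm38 chr8:105636568-105682922, plus strand) was examined first. The table holds 1 value per library for the gene, so added and endogenous transcripts cannot be told apart, and exons of Agrp and Gm5914 overlap it on the opposite strand. It stood at 5185 and 5098 normalised counts in the control with IAA and at 11630.5 and 11077 with wild-type CTCF and IAA. Without IAA it was at 4134 and 4332 in the control and 9275 and 9481 with wild-type CTCF. The log2 difference was 1.14 with IAA (SE 0.03, limma adjusted p 1.31e-08) and 1.15 without it, and the interaction was -0.01 (limma adjusted p 0.982). Mutated CTCF with IAA was at 11758 and 11590.3, a log2 difference of 0.04 from wild-type CTCF with IAA (limma adjusted p 0.605).

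With wild-type CTCF under IAA, limma called 872 genes, which is 6.26% of those tested. Of these 555 were higher (3.98%) and 317 lower (2.27%). At least 2-fold, 115 genes were higher (0.825%) and 32 lower (0.230%). An unadjusted p under 0.05 was reached by 2708 genes (19.4%). The count fell to between 415 and 464 when any 1 of the 4 libraries was left out, and to 570 when the spread was moderated without a mean trend.

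The largest rises were in genes that control cells had at low levels under IAA. Cc2d2a (ENSMUSG00000039765.15, GRCm38 chr5:43662346-43740972, plus strand), which encodes a protein of the ciliary transition zone, stood at 17.0 and 18.9 in the control with IAA and at 140.5 and 177 with wild-type CTCF and IAA. It rose by 3.07 on the log2 scale (SE 0.19, limma adjusted p 3.31e-06). Without IAA the control was at 187 and 250.3 and wild-type CTCF at 245 and 268. The treated control libraries were far below all others, and wild-type CTCF with IAA lay below both untreated groups. Adprhl2 (ENSMUSG00000042558.16, GRCm38 chr4:126316047-126321703, minus strand), a hydrolase that removes ADP-ribose from serine, was at 79.2 and 77.7 and rose to 465 and 415 (log2 difference 2.47, SE 0.09, limma adjusted p 1e-07). Its untreated libraries were at 582 and 545 in the control and 632 and 591 with wild-type CTCF, so its rise also stopped below the untreated level. Snhg17 (ENSMUSG00000085385.7, GRCm38 chr2:158353700-158361580, minus strand), a long noncoding host gene of small nucleolar RNAs whose exons hold small RNA genes, went from 175 and 152 to 965 and 841 (log2 difference 2.46), against 1095 and 1129 in the untreated control.

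The other large rises covered varied functions. Dennd6b, of a family of Rab exchange factors and with the microRNA gene Mir6958 in its exons, was at 11.6 and 21.1 against 142 and 116 (log2 difference 2.95). Det1, part of a ubiquitin ligase and overlapped by 1700011D18Rik on the opposite strand, was at 20.5 and 33.5 against 167 and 129. Dph7, an enzyme of diphthamide synthesis on elongation factor 2, was at 50.4 and 47.9 against 328 and 206. The wild-type libraries of Dph7 lay far apart. R3hcc1 was at 66.4 and 63.6 and rose to 337 and 317, and Mob3b, a MOB family member, was at 29.8 and 27.4 and rose to 126 and 133 (log2 differences 2.31 and 2.14). The zinc-finger gene Zfp398 was at 52.1 and 58.6 against 200.3 and 253, and the sorting nexin Snx19 at 91.0 and 71.7 against 324 and 326. Replicates of Snx19 with wild-type CTCF were close to each other and to 361 and 347 in the untreated control. Tirap, an adaptor of Toll-like receptors whose exons Srpr and Gm39318 overlap on the opposite strand, was at 24.4 and 41.0 against 145 and 114. Pcdhga11, a clustered protocadherin that shares constant exons with its neighbours, was at 22.1 and 15.6 against 84.3 and 119 (log2 difference 2.37, limma adjusted p 0.00587). Its call was lost without replicate 2 of the control or of wild-type CTCF with IAA (limma adjusted p up to 0.0579).

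**Figure D1:**
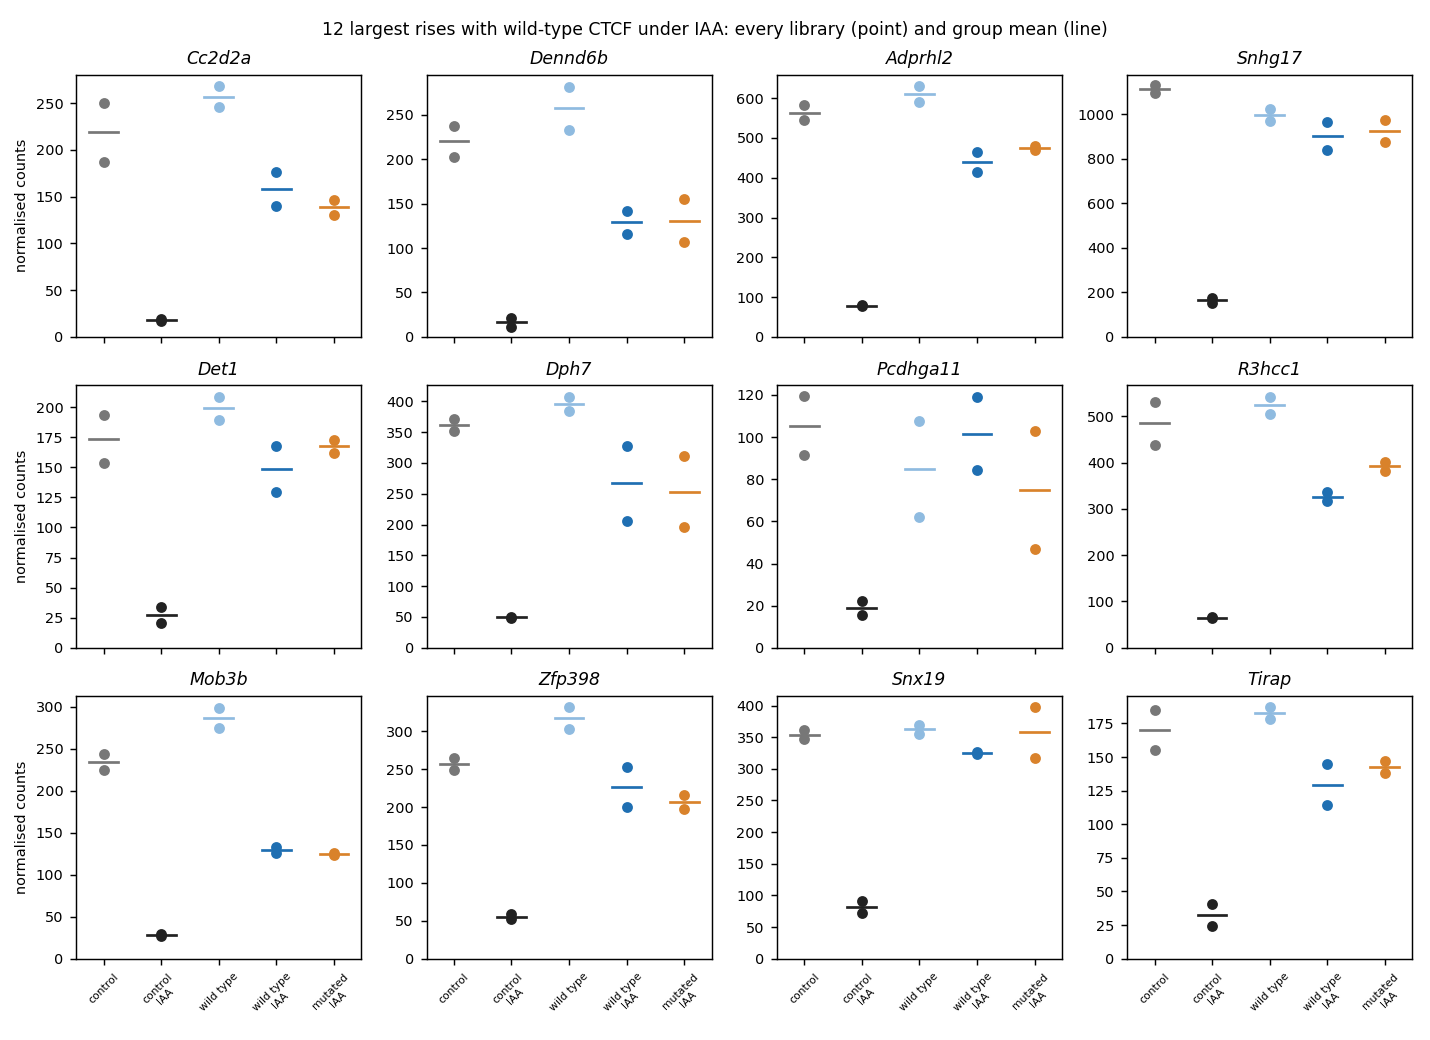
Normalised counts (vertical axis, from 0) of the 12 genes with the largest rises, by group (horizontal axis), with a point for each library and a line for each group mean. The 2 control libraries with IAA lie below the other libraries shown in each panel, and wild-type CTCF with IAA stands at 55.2% to 96.4% of the untreated control mean. The genes were chosen by the difference between these groups with IAA.

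Against untreated control cells, these 12 genes stood at 7.43% to 23.0% in the control with IAA. They stood at 55.2% to 96.4% with wild-type CTCF and IAA and at 53.2% to 101% with mutated CTCF and IAA. The 12 were chosen for their rise over the control with IAA, so the low level in that control is partly set by the choice. Of the 12, 3 were still called lower with wild-type CTCF and IAA than in the untreated control, against 8.49% of all genes. These were Mob3b (log2 difference -0.85), R3hcc1 (-0.56) and Adprhl2 (-0.36, limma adjusted p 0.0189). Mutated against wild-type CTCF, both with IAA, called none of the 12, with log2 differences of -0.52 to 0.26.

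Sequences around the starts of these genes are shown because CTCF also binds near many gene starts. The genes were chosen for their rises, so their shared direction is set by the choice. The windows are those of RefSeq on GRCm38.p6, 250 bases before to 50 after the start, and 10 of the 12 genes have one. Patterns of 12 bases taken from the core of the CTCF motif were searched on both strands, all 4 overlapping each other. The loosest is CC, 3 bases of any kind, AG, 2 of any kind and GGC. The next needs A directly after the CC as well. The 2 others are the loosest with a G after the AG, and with GG after it, so that the last ends in AGGGGGC. They were chosen with the results known, and a match describes letters, not a bound site. Capitals mark the match in the windows of Adprhl2 (chr4:126321654-126321953, minus strand) and Zfp398 (chr6:47835411-47835710, plus strand), which hold the pattern ending in AGGGGGC.
Adprhl2: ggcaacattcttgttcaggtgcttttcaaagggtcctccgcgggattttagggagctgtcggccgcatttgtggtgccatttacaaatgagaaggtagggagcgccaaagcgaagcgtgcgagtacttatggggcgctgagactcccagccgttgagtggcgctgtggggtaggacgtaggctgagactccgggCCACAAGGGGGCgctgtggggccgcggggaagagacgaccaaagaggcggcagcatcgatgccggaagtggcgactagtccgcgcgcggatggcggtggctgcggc
Zfp398: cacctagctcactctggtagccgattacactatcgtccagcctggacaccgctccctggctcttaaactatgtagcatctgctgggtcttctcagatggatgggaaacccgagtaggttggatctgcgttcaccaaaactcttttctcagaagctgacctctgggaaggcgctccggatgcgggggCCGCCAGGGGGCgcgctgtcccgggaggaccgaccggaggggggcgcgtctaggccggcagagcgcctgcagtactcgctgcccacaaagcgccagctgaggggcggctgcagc
The sites of Dennd6b (match at chr15:89196643-89196654), Dph7 (chr2:24962373-24962384) and Det1 (chr7:78847233-78847244) follow with 10 bases on each side, read along the gene. That of Dennd6b matches on the opposite strand, and that of Det1 matches the loosest pattern alone. A second match to the loosest pattern in the Zfp398 window, at chr6:47835688-47835699, is left in lower case.
Dennd6b: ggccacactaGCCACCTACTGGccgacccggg
Dph7: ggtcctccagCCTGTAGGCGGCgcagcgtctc
Det1: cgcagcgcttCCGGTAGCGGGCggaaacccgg

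The loosest pattern was found for 5 of the 10 large rises that have a window, and Cc2d2a, Snhg17, Mob3b, Snx19 and Tirap do not hold it. Of the 12 largest falls, 10 have a window and 1, Scml2, held it. Among 10308 tested genes with a window, 15.1% held it in any of their windows. The share was 28.1% of 395 genes called higher and 37.0% of 81 called higher at least 2-fold. It was 14.6% of 267 called lower and 17.9% of 28 called lower at least 2-fold. For the pattern ending in AGGGGGC the shares were 2.72%, 10.6%, 14.8%, 2.25% and 3.57%, in the same order. With A after the CC they were 3.31%, 8.35%, 13.6%, 4.12% and 0%, and with a single G after the AG 6.72%, 17.2%, 24.7%, 6.74% and 3.57%. Of all 32851 RefSeq windows, counted singly and not by gene, 8.61% held the loosest pattern. The shares were 2.43% for that with A after the CC, 3.43% for that with a single G and 1.28% for that ending in AGGGGGC. No test was made of these shares, and they are a description of these windows.

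The same comparison without IAA shares no library with that under IAA. There limma called 125 genes (0.897%), 70 higher (0.502%) and 55 lower (0.395%), a count that became 2 with only those groups in the fit. At least 2-fold the balance turned, with 5 genes higher (0.0359%) and 13 lower (0.0933%). Of these genes 67 were also called under IAA, which is 7.68% of the 872 and 53.6% of the 125, and 65 of the 67 had the same direction in both. The interaction, the difference under IAA minus that without, was called for 197 genes (1.41%), 154 with a positive sign (1.10%) and 43 with a negative sign (0.309%), and for 101 to 164 with any 1 of the 8 libraries left out. It contains the difference under IAA. Of genes higher under IAA it was positive for 143 of 555, or for 64 of the 115 at least 2-fold higher. Of genes lower under IAA it was negative for 35 of 317, or for 3 of the 32 at least 2-fold lower.

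**Figure D2:**
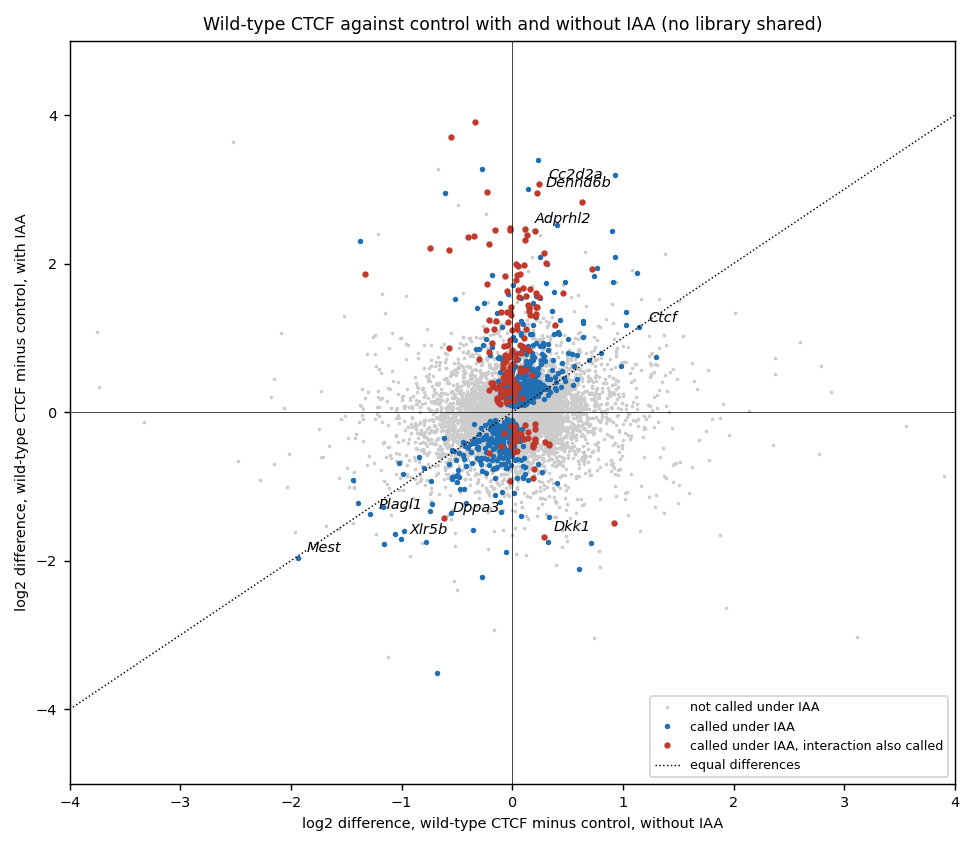
Each point is a gene, with its log2 difference between wild-type CTCF and control without IAA (horizontal axis) and with IAA (vertical axis); 2 genes lie outside the axes. Cc2d2a, Dennd6b and Adprhl2 are near 0 without IAA, while Mest, Plagl1 and Ctcf lie close to the dotted line of equal differences.

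All 12 of the large rises had a called positive interaction, from 1.70 to 2.82 on the log2 scale, and none was called without IAA. Of the 12 large falls, 6 were also called lower without IAA, and 2, Dkk1 and Dppa3, had a called interaction.

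Of the 12 falls, Mest, Xlr5b, Dppa3, Plagl1, Stra8 and Scml2 were called lower both with and without IAA. Mest (ENSMUSG00000051855.15, GRCm38 chr6:30723547-30748465, plus strand), an imprinted gene of the alpha/beta hydrolase fold overlapped by Copg2 on the opposite strand, was at 207 and 264 in the control with IAA and 56.2 and 62.9 with wild-type CTCF and IAA. Without IAA it was at 145 and 144 against 26.1 and 52.3, so it was lower with wild-type CTCF in both conditions (log2 differences -1.96 and -1.94, limma adjusted p 0.00231 and 0.0127). Plagl1, an imprinted zinc-finger transcription factor overlapped by Gm27741, was at 886 and 933 against 377 and 327 under IAA (log2 difference -1.37). Without IAA it differed by -1.29. These 2 imprinted genes had differences of like size in both conditions. Stra8, which is induced by retinoic acid and needed for meiosis, was at 639.7 and 682 against 294 and 252 under IAA and at 277 and 276 against 134 and 113 without it (log2 differences -1.28 and -1.17). Xlr5b, of an X-linked family of near-identical copies among which reads may have been divided, differed by -1.71 and -1.01. Scml2, a Polycomb-group gene, differed by -1.22 and -1.40, and lost its call under IAA without either control library or replicate 2 of wild-type CTCF (limma adjusted p up to 0.0745).

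Dkk1 (ENSMUSG00000024868.8, GRCm38 chr19:30545863-30549665, minus strand), a secreted inhibitor of Wnt signalling, was called under IAA but not without it (log2 difference 0.29 there, limma adjusted p 0.684). It stood at 11.4 and 12.5 in the untreated control and 182 and 198 with IAA, and at 15.5 and 14.2 with wild-type CTCF and 67.6 and 50.5 with wild-type CTCF and IAA. The log2 difference under IAA was -1.68 (SE 0.23, limma adjusted p 0.00154), with an interaction of -1.97 (limma adjusted p 0.0149). The libraries with wild-type CTCF and IAA lay below the treated and above the untreated control. Mutated CTCF with IAA was at 127 and 150.4, a called log2 difference of 1.23 from wild-type CTCF with IAA. Dppa3, a maternal factor and marker of naive pluripotency, was at 938 and 951 in the control with IAA against 354 and 350.1 with wild-type CTCF and IAA. Without IAA it was at 376 and 363 against 216 and 267. It was lower with wild-type CTCF in both conditions (log2 differences -1.42 and -0.62), more so under IAA (interaction -0.80, limma adjusted p 0.0175), and was higher by 1.17 with mutated than with wild-type CTCF under IAA.

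Among the other falls, Nlrp4c, of a family with similar copies, was at 416 and 422 in the control with IAA and 192 and 163 with wild-type CTCF and IAA (log2 difference -1.24), and at 378 and 318 with mutated CTCF and IAA. Ocel1, overlapped by Nr2f6 on the opposite strand, was at 406 and 412 against 171 and 177, and at 165 and 161 with mutated CTCF (log2 difference -1.23 for wild-type CTCF). Both lay above the untreated control, at 131 and 148 for Nlrp4c and 80.8 and 124 for Ocel1, with wild-type CTCF and IAA. The membrane mucin Muc1 (log2 difference -1.64, limma adjusted p 0.0431) lost its call without any 1 of the 4 libraries (adjusted p up to 0.204), as did Cdc42ep2, an effector of Cdc42 (log2 difference -1.07, up to 0.0926). The neurexophilin Nxph3 (log2 difference -1.09) lost it without replicate 1 of the control or either replicate of wild-type CTCF (adjusted p up to 0.108). Mutated against wild-type CTCF, both with IAA, called 4 of the 12 falls, all higher with mutated CTCF: Dkk1, Dppa3, Nlrp4c and Stra8. That contrast uses the wild-type libraries for whose low values the falls were chosen, so its direction here is partly set by the choice, and the same libraries set the rises. Over all genes that contrast called 314 (2.25%), 150 higher (1.08%) and 164 lower (1.18%).

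**Figure D3:**
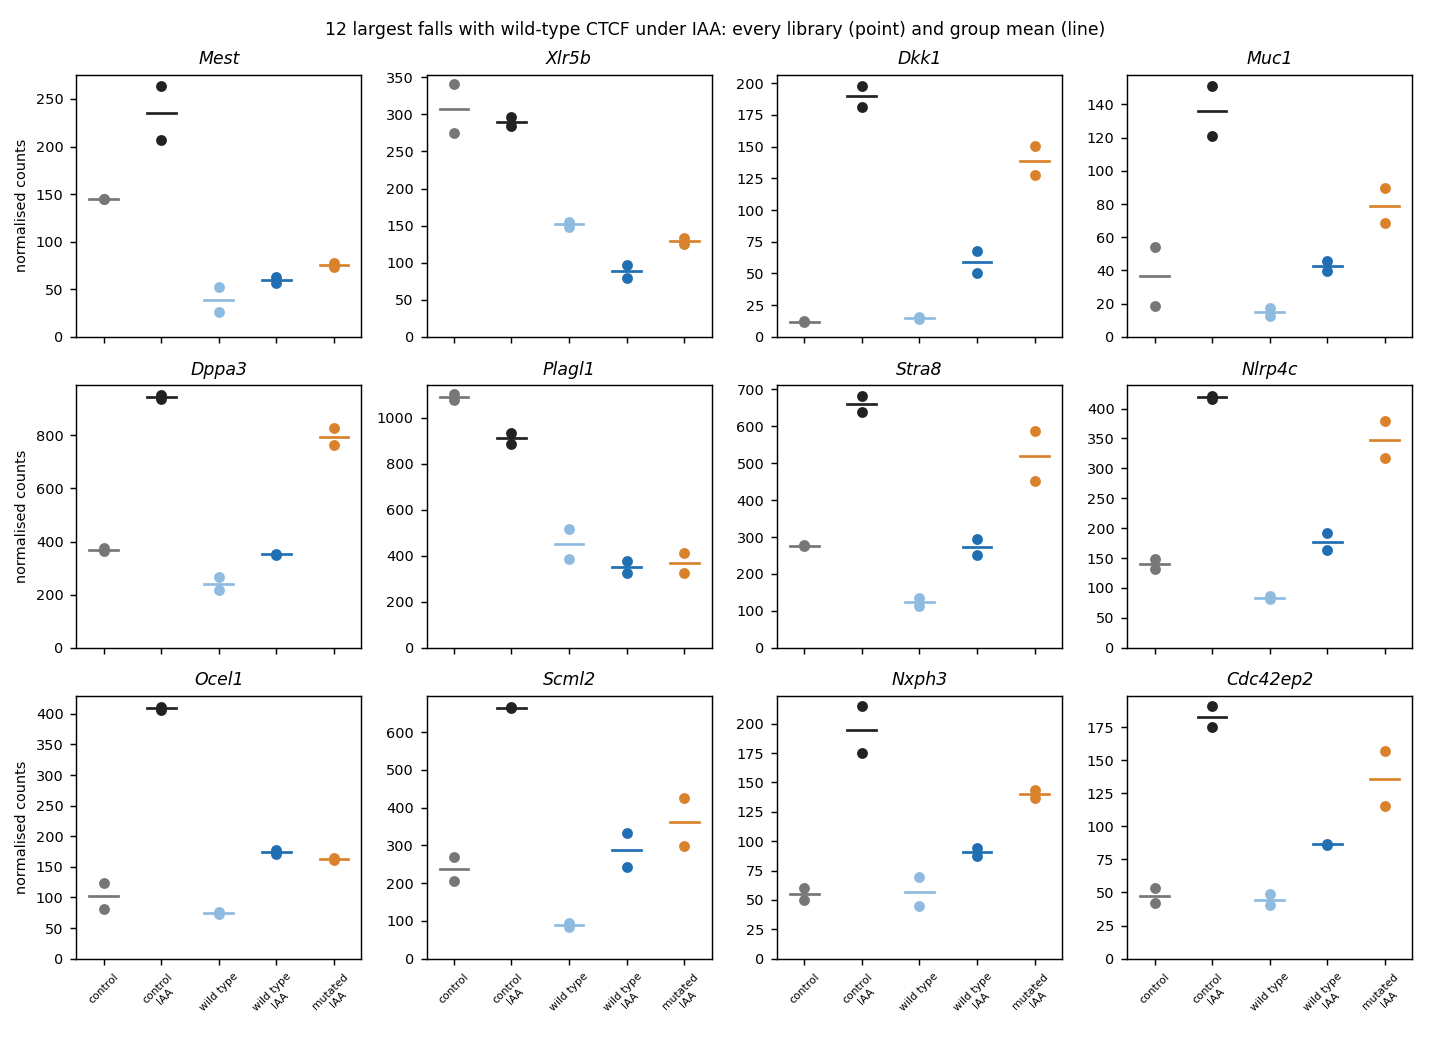
Normalised counts (vertical axis, from 0) of the 12 genes with the largest falls, by group (horizontal axis), with a point for each library and a line for each group mean. Wild-type CTCF with IAA lies below the control with IAA in every panel, and for Mest, Plagl1 and Xlr5b wild-type CTCF without IAA is also below its control.

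Among the largest negative interactions, Slco5a1, of the organic anion transporter family, was at 742 and 722 in the control with IAA and 383 and 409 with wild-type CTCF and IAA, against 207 and 221 and 248 and 238 without IAA (interaction -1.07, limma adjusted p 0.00102). The GTPase gene Rab15 had an interaction of -0.96 and stood at 216 and 198 with wild-type CTCF and IAA, close to 211 and 205 in the untreated control. Lad1 differed in another way, with an interaction of -1.02 that came with a called rise of 0.74 without IAA and a log2 difference of -0.29 under it (limma adjusted p 0.299).

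Genes that respond to CTCF loss were taken from separate tables, which share no library with this comparison and were normalised separately. The CTCF degradation table had 435 genes called lower by at least 2-fold at 12 h (3.18% of its genes), and 410 of them were tested here. Wild-type CTCF under IAA had 121 of the 410 called higher (29.5%, against 3.98% of all genes) and 7 lower, with a median log2 difference of 0.39 against -0.0019 over all genes. Without IAA the median of these genes was 0.04. Their median level was 60.2% of untreated control in the control with IAA, 79.8% with wild-type CTCF and IAA and 78.3% with mutated CTCF and IAA. Of the 410, 74 had a called positive interaction, against 1.10% of all genes. Still called lower than in the untreated control were 77 of the 410, against 8.49% of all genes. Genes at least 2-fold higher after CTCF loss numbered 174 (1.27%), and of 169 tested here, 28 were called lower here (16.6%, against 2.27% of all genes) and 1 higher, with a median log2 difference of -0.38. Both the 121 and the 28 became smaller when any 1 of the 4 compared libraries was left out. Leaving out a library of the CTCF degradation table also changed which genes form the sets, so those runs are not changes of 121 of 410 or 28 of 169.

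A serum table gives a further set, beside 3.98% higher and 2.27% lower of all genes tested here. Of genes lower there by at least 2-fold after 12 h of IAA (1.44% of its genes), 183 were tested and 108 were called higher here (59.0%), and of 112 tested that were higher there (1.10%), 26 were called lower (23.2%). For genes lower in both CTCF tables, a set chosen after the values were seen, 77 of 97 were called higher (79.4%), with a median of 1.36 and a median level of 27.3% of untreated control with IAA and 71.0% with wild-type CTCF and IAA. Of these 97, 44 were still called lower than in the untreated control (against 8.49% of all genes). A called positive interaction was found for 54 (against 1.10%). RAD21, a cohesin subunit, was destroyed in another table through the analogue 5-Ph-IAA. Genes at least 2-fold lower after 12 h of its loss (0.619% of that table's genes) gave 4 of 81 called higher (4.94%, against 3.98% of all genes). Of the 81, 3 were called lower (3.70%, against 2.27%), and the median was 0.03.

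**Figure D4:**
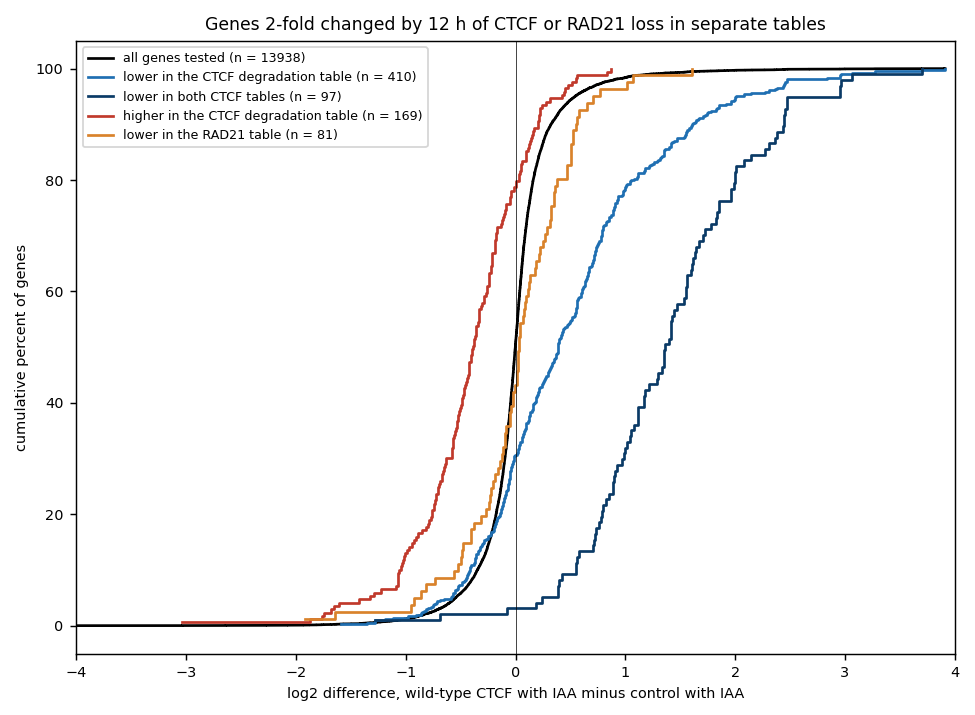
Cumulative percent of genes (vertical axis) by log2 difference between wild-type CTCF with IAA and control with IAA (horizontal axis), for all genes tested and for genes changed at least 2-fold by 12 h of protein loss in separate tables. The curve of the 97 genes lower in both CTCF tables has its median at 1.36, that of the 81 genes lower after RAD21 loss at 0.03.

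Seen from the comparison itself, 110 of the 115 genes at least 2-fold higher were tested in the CTCF degradation table, and 82 were called lower there at 12 h (74.5%, against 8.40% of its genes). In serum 87 of 110 were called lower (79.1%, against 9.25%, while 7.73% of its genes were higher), and after RAD21 loss 5 of 107 (4.67%, against 6.35%). Of the 32 genes at least 2-fold lower, 31 were tested in the CTCF degradation table and 10 were called higher there (32.3%, against 9.39%). After RAD21 loss 6 of 29 of these genes were called higher (20.7%, against 6.66%) and 2 lower. Among the 12 largest rises, 11 were called lower at 12 h in the CTCF degradation table, and all 12 in serum. The exception in the CTCF degradation table was Pcdhga11 (log2 difference there -1.54, limma adjusted p 0.223). After RAD21 loss 1 of the 12, Dennd6b, was called lower (-0.69). Of the 12 largest falls, 7 were called higher at 12 h in the CTCF degradation table and 1 lower, against 9.39% and 8.40% of its genes. In serum 6 of the 12 falls were called higher and 0 lower, and after RAD21 loss 3 were higher and 2 lower. Stra8 had values of opposite direction in the tables, with -2.91 in the CTCF degradation table (limma adjusted p 9.82e-05) while control cells here stood at 277 and 276 without and 639.7 and 682 with IAA.

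Wild-type CTCF with IAA was also set against the untreated control, which asks what remained different. limma called 2519 genes (18.1%), 1336 higher (9.59%) and 1183 lower (8.49%). This contrast shares the wild-type libraries with the comparison above, so its values are given side by side and not as further support. It differs from the untreated control in IAA as well as in the added gene. Cyp1a1 differed there by a log2 difference of 3.04, and Utf1, a chromatin-associated factor of stem cells, stood at 140.4 and 158 with wild-type CTCF and IAA, between 79.4 and 76.1 in the control with IAA and 498 and 495 without.

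Clustered protocadherins, cell-adhesion genes on chromosome 18 whose transcripts use common last exons, which leaves gene-level values uncertain, had 7 of 15 tested members called higher and none lower, against 3.98% and 2.27% of all genes, with a median log2 difference of 1.97. Without IAA the median was -0.28, with 0 called, against 0.897% of all genes. Pcdhga1 was at 6.72 and 5.46 in the control with IAA against 33.0 and 42.5 with wild-type CTCF (log2 difference 2.45, limma adjusted p 0.000383), and Pcdhgb8 at 23.9 and 16.7 against 67.6 and 69.8. Pcdhga7 was listed at 0 in both control libraries with IAA and at 12.9 and 11.2 with wild-type CTCF. The calls of Pcdhga1, Pcdhga2 and Pcdhgb8 held in every alternative, while 4 were lost when a library was left out. Pcdhga3 lost it without replicate 1 of either group, Pcdhga7 without replicate 1 of wild-type CTCF, and Pcdhga10 without replicate 1 of the control or either replicate of wild-type CTCF, as Pcdhga11 did without replicate 2 of either group. Mutated CTCF gave a median of 1.86 against the same control libraries, and 0 of the 15 were called between mutated and wild-type CTCF.

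Of 22 hypoxia and glycolysis genes tested, 10 were called higher and 1, Gapdh, lower, against 3.98% and 2.27% of all genes, with a median log2 difference of 0.18. Without IAA, in other libraries, the median was 0.16 with 7 called, against 0.897% of all genes, and the interaction was called for 0. Ldha, which makes lactate, was at 5761 and 5842 in the control with IAA and 7619 and 7704 with wild-type CTCF and IAA (log2 difference 0.40, limma adjusted p 1.43e-05). Pgk1 was at 7832 and 8079 against 9584 and 9574, and the liver-type phosphofructokinase Pfkl at 1033 and 1003 against 1335 and 1477. With mutated CTCF and IAA these were at 4978 and 4835, 7248 and 7299.8 and 891 and 845, below both the control and wild-type CTCF with IAA. Of the 22, 16 were called lower with mutated than with wild-type CTCF under IAA, against 1.18% of all genes (median log2 difference -0.43). The calls of Ldha, Pfkl, Pgk1 and the glucose transporters Slc2a1 and Slc2a3 held in every alternative. Those of Aldoa, Bnip3, Ero1l and P4ha1 were each lost when a library was left out. Eno1 lost its call without the mean trend, and Gapdh lost its call there and under quantile normalisation.

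**Figure D5:**
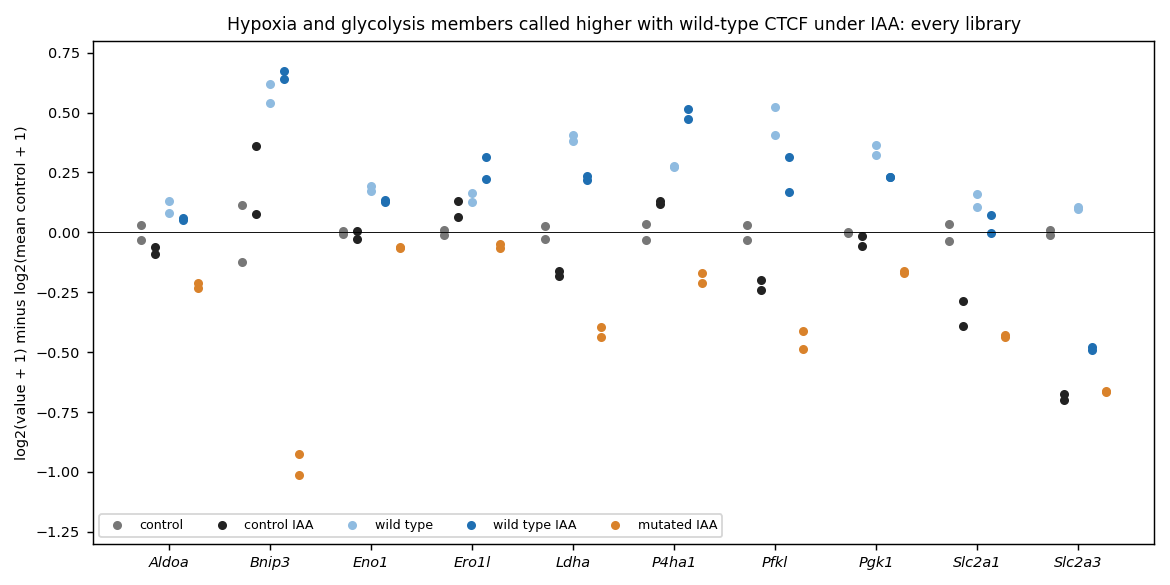
log2(value + 1) of each library minus log2 of the mean untreated control value + 1 (vertical axis) for the 10 hypoxia and glycolysis genes called higher with wild-type CTCF under IAA (horizontal axis), coloured by group. For Ldha, Pgk1 and Pfkl wild-type CTCF with IAA lies above and mutated CTCF with IAA below the control with IAA.

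Apart from Dppa3, called pluripotency genes differed by less than 2-fold. Of 13 core and formative genes, 4 were higher and 1 lower, and of 18 naive genes, 5 were higher and 2 lower, against 3.98% higher and 2.27% lower of all genes. Utf1 rose by 0.93 on the log2 scale (interaction 1.11) and Foxd3, a forkhead factor with Gm23366 in its exons, went from 101 and 96.0 to 167 and 181 (interaction 1.02). Sox2 went from 5948 and 5781 to 7496 and 7156, against 7507 and 7200.2 in the untreated control (log2 difference 0.32, limma adjusted p 0.000285), and was lower by 0.28 with mutated than with wild-type CTCF. Fgf4 and Tet2, a growth factor and a DNA demethylase, rose by 0.34 and 0.40. The calls named here held in every alternative, and those of Dppa5a, Prdm14, Tcl1 and Dnmt3b did not.

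Signalling and response lists held few calls, and over all genes 3.98% were higher and 2.27% lower. The Wnt and p53 counts lay near these shares. The shares called higher in the FGF-ERK, interferon, stress response and G2/M lists lay above that of all genes. In the Wnt list, 1 of 20 was higher (Sfrp1, a secreted Wnt antagonist, 0.45, and 0.32 without IAA) and 1 lower (Dkk1). In the BMP and Nodal list, 2 of 25 were higher and none lower. Lefty2, a Nodal antagonist, was at 1867 and 1797 in the control with IAA and 2576 and 2502 with wild-type CTCF and IAA, above all other groups (interaction 0.49, limma adjusted p 0.00274), and at 1564 and 1543 with mutated CTCF. In the FGF-ERK list, 3 of 17 were higher, among them Ccnd1, cyclin D1 (0.50). Interferon genes had 3 of 13 higher (Ifitm3 0.41), the integrated stress response 4 higher and 1 lower of 20, p53 targets 1 and 1 of 23 (Cdkn1a 0.34), and G2/M genes 3 higher of 20 (Mki67 0.25). Aryl hydrocarbon receptor genes had 1 higher and 2 lower of 12. No call of the stress response list held with each library left out in turn: omitting replicate 1 of the control ended those of Atf3, Atf4, Slc7a3 and Slc7a5, and omitting replicate 2 of wild-type CTCF that of Mthfd2. In the receptor list, Tiparp and Nqo1 lost the call when a library was left out, and Hsp90ab1 under quantile normalisation and without the mean trend.

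In the imprinted list outside the Igf2-H19 domain, 3 of 34 were higher and 4 lower, with a median log2 difference of -0.06. For this and the next lists the shares over all genes were 3.98% higher and 2.27% lower. Peg3 went from 2389 and 2449 to 1664 and 1654 (log2 difference -0.54) against 1249.9 and 1263 in the untreated control, and Snrpn differed by -0.48. In the Igf2-H19 domain, 2 of 9 were higher and 1 lower. Mrpl23, a mitochondrial ribosomal protein gene there, was at 40.1 and 45.6 with IAA and at 117 and 89.2 with wild-type CTCF and IAA (log2 difference 1.24, limma adjusted p 0.00181), against 197 and 172 in the untreated control. Of 25 CTCF and cohesin genes, 2 were higher, Ctcf and Ldb1, and 3 lower, Patz1, Rec8 and Stag1, a cohesin subunit (-0.17). The call of Ctcf held in every alternative, while those of Ldb1, Patz1, Rec8 and Stag1 were each lost when a library was left out. Hox genes had 0 of 11 called. NuRD genes had 2 of 15 called, Mta3, whose call held in every alternative, and Hdac1, whose call did not. Of 24 genes of the two-cell-like state, 3 were in the table and 0 were tested.

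Marker lists of other cell types held few calls. Of embryonic stem cell markers 3 of 12 were higher and none lower, and their summed level was 133348 to 134203 in the control with IAA and 137850 to 138909 with wild-type CTCF and IAA. Primitive endoderm markers had 0 of 8 called, with sums of 16644 to 17793 against 18391 to 18805. Mesoderm markers had 1 of 5 called lower, Gsc (-0.80; its call was lost without any 1 of the 4 libraries), with sums of 491 to 494 against 365 to 380. Neural markers had 1 higher, Map2, and 1 lower, Tubb3, of 6, both with calls that library omission ended, with sums of 4851 to 4962 against 4541 to 4705. Trophoblast and fibroblast markers had 0 of 7 and 0 of 2 called, with sums of 2064 to 2098 against 1905 to 1960 and of 112 to 116 against 81.5 to 127. The part of these markers in the gene results was not tested. In these bulk samples fewer cells of a type and less RNA per cell cannot be told apart.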

How the data were processed

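RNA-seq libraries of E14 cells were deposited as tables of normalised counts (a signal that is never negative) by the authors. Per the submitters' processing notes the tools were Trim Galore, Bowtie2, STAR, RSEM and DESeq2, on mm10, with roles, order and versions not given in the sources used here. The authors' normalised values were not whole multiples of 1 read (step coherence 0.362 to 0.496), so no count test was run and depth is unknown. Tables were normalised separately, and tests stay within a table. 0 columns were unmapped. The CTCF degradation table stops inside a row, which was dropped.

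Genes with a mean of at least 10 were fitted as log2(value + 1) by limma 3.58.1 in R 4.3.3 on 6 group means, with contrasts, eBayes with a mean trend and Benjamini-Hochberg adjustment over all genes. At least 2-fold means an absolute log2 difference of at least 1. With 2 libraries against 2, an exact two-sided permutation test cannot go below 0.333. Positions come from GENCODE M21 on GRCm38 (99.9% of identifiers matched). Counting strand is not given, so overlapped genes are uncertain.

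The text names the 12 largest rises and falls of called genes whose libraries do not overlap, and the 4 largest called interactions per direction. All need a higher-group mean of 100 or more and a symbol that is no placeholder. Ctcf, called members of lists and defining list members are named too. Members, lists and promoter patterns were chosen with earlier results of these data known. The code was tested on simulated data: known differences came back at their true size and few unchanged genes were called. A first criterion, recovery of nearly all 2-fold changes at any level, was not met, because genes of low level were missed, and was replaced by the same criterion for genes with a mean of at least 100. A low gene that was not called may therefore have changed.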

Additional observations from a re-analysis of the deposited data

Results flagged for a closer look

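For 14 of the 24 genes with the largest rises and falls, the difference between wild-type CTCF and control was itself different with IAA and without it, by a limma interaction at an adjusted p under 0.05. Of these 12 were positive on the log2 scale: Cc2d2a at 2.82, Dennd6b at 2.73, Pcdhga11 at 2.72, Snhg17 at 2.62, Adprhl2 at 2.35, Dph7 at 2.25, Det1 at 2.24, R3hcc1 at 2.19, Snx19 at 1.96, Tirap at 1.88, Mob3b at 1.85 and Zfp398 at 1.70. The interaction was negative for Dkk1 at -1.97 and Dppa3 at -0.80. The interaction contains the difference by which these genes were chosen. The limma adjusted p of Pcdhga11 was 0.0479, near the threshold.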

How the results depend on the processing

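Pseudocounts of 0.5 and 5, no filter or a filter at a mean of 100, median-of-ratios rescaling and quantile normalisation left all counts of called genes within 1.5 times of those reported. The filter at 100 shrank the sets from CTCF loss, so that 86 of 162 lower genes (53.1%) were called higher and 25 of 73 higher genes (34.2%) lower. Without the mean trend, 570 genes were called under IAA, 123 in the interaction and 48 without IAA. When the fit held just the compared groups these were 530, 123 and 2. Requiring at least 2-fold gave 147, 71 and 18, and 208 for wild-type CTCF with IAA against the untreated control, and 79 and 8 for the genes lower and higher after CTCF loss. It moved the share of higher calls under IAA from 63.7% to 78.2%, and without IAA from 56.0% to 27.8%. Membership by adjusted p alone gave 250 of 1125 and 124 of 1282, and membership in both CTCF tables, added after seeing the data, gave 77 of 97 and 14 of 41. Leaving out 1 library in turn gave 415 to 464 genes under IAA, 101 to 164 in the interaction, 59 to 76 without IAA, 1346 to 1666 against the untreated control, and 91 to 108 and 14 to 26 of the genes lower and higher after CTCF loss. These fits have fewer libraries. Those without a library of the CTCF degradation table also have smaller loss sets, so the ranges for these sets mix runs on different sets. Replicate numbers are not paired by the labels, and same-numbered libraries deviated together with r of only -0.063 to 0.102. A replicate block gave 841 genes under IAA, 190 in the interaction, 113 without IAA and 2493 against the untreated control, with 117 and 27 in the loss sets. Of 94 named genes, 27 to 33 lost the call when 1 library was left out, 28 lost the call without the trend, 24 with only the groups compared, 2 under the block and 6 under quantile normalisation, where Hsp90ab1 had a difference of 0. No gene changed sign in any alternative run. Groups by the treatment label could not be run, since no wild-type group with IAA is left. Depth is unknown, so no floor on low values can be given.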
